A study of Mus musculus with 58 samples.

Results

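The data described here set the extensor digitorum longus muscle (EDL) of vibrated tumour bearing mice (T + WBV) against the EDL of vibrated control mice (C + WBV). They were chosen by the tissue and treatment labels, and comprise 11 of the 58 arrays of the series, 5 of T + WBV and 6 of C + WBV mice. All 11 mice were male CD2F1 mice, a cross of BALB/c and DBA/2, and their age is not given in the labels. T + WBV mice had received C26 cells, a murine adenocarcinoma line, under the skin of the right flank, and C + WBV mice a sham injection of the salt solution alone. Both groups stood on a vibrating platform for 15 min a day on 7 days a week at 45 Hz and 1.0 g (whole-body vibration, WBV), and the muscles date from day 19. Mice without vibration (T, n = 6, and C, n = 6) and the soleus muscle (SOL) of the same vibrated mice served for comparison. The model is a transplanted tumour of a single cell line in a hybrid strain. Each array measured RNA of a part of a muscle, in which cell types are mixed. The paper states that EDL and SOL were each split between histology and RNA.

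Cachexia is the loss of muscle and fat that accompanies many cancers. Cytokines of the interleukin-6 family act through the transcription factor STAT3 and drive the synthesis of acute phase proteins, mainly in the liver but also in muscle. In wasting muscle the FoxO transcription factors raise ubiquitin ligases such as Trim63 (MuRF1) and Fbxo32 (atrogin-1), which mark proteins for the proteasome, while autophagy delivers organelles to the lysosome. The EDL is a fast, glycolytic muscle of the lower leg, and fast fibres are known to waste more readily than slow ones in this kind of disease.

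Promoter windows of 3 genes are shown because these genes lead the lists of the acute phase, the metallothioneins and the ubiquitin ligases described further on and hold the letters searched for. They are 3 of 8 windows searched. Each is the stretch of 250 bases before the RefSeq start of the gene in build GRCm38.p6, written on the strand of the gene. Capitals in the first mark TTGCNNAA, a form of the C/EBP site, on either strand. The window is that of Lcn2 (lipocalin 2, Entrez 16819) at chr2:32387740-32387989, minus strand.
Lcn2: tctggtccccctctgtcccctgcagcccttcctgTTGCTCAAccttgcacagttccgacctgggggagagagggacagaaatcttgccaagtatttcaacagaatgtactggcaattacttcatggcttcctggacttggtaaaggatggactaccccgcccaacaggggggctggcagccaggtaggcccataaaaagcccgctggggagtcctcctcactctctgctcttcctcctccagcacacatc
Capitals in the second mark TGCNCNC, the core of the metal response element, on either strand. The window is that of Mt2 (metallothionein 2, Entrez 17750) at chr8:94172368-94172617, plus strand.
Mt2: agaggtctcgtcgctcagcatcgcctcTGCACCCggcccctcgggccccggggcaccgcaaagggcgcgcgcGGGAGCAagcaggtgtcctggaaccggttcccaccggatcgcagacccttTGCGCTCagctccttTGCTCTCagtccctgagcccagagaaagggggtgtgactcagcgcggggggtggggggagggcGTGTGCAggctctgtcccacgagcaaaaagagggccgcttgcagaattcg
Capitals in the third mark GTAAACA, a FoxO site, on either strand. The window is that of Trim63 (Entrez 433766) at chr4:134314870-134315119, plus strand.
Trim63: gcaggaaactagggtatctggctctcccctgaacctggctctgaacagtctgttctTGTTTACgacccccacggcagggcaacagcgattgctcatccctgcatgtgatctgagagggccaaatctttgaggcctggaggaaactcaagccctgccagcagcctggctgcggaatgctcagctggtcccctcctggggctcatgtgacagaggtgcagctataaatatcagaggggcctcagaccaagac
Such letters are common, and a match is a description of the sequence and not a site in use. Over the 14739 genes with a window of this length, 8.81% held the C/EBP letters, 48.0% the metal response letters and 2.67% the FoxO letters. Among the genes called higher in T + WBV these shares were 8.97, 51.3 and 2.12%. Of the windows not shown, that of Mt1 held the metal response letters. Those of Serpina3n, Il6ra and Cxcl13 held no match of TTCNNNGAA, a STAT site (6.48% of genes called higher, 6.75% of all). That of Ddit4 held no match of AGAACA, part of the glucocorticoid response element (10.5% of genes called higher, 13.3% of all).

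All 5 T + WBV mice were lighter than every C + WBV mouse. At day 19 their body mass was 87.8, 100.9, 75.9, 82.2 and 83.2% of the mean of day 0 and day 1 in replicates 1 to 5, against 107.0 to 111.4% (median 109.55%) in C + WBV (exact two-sided permutation test, p = 0.00433, the smallest these group sizes allow). The EDL itself weighed 6.5, 7.9, 6.5, 6.5 and 7.1 mg in T + WBV, against 8.1 to 9.6 mg (median 9.2 mg) in C + WBV. Its mean was 6.9 ± 0.616 mg in T + WBV (SD, n = 5) and 9.0 ± 0.58 mg in C + WBV (SD, n = 6), with the same exact p of 0.00433. Adjustment over these 2 masses leaves both values as they are. Replicate 2 of T + WBV was thus the heaviest of the tumour bearing mice and had the heaviest EDL among them. In mice without vibration the EDL weighed 4.8 to 8.3 mg in T and 6.6 to 8.8 mg in C. The paper reports a larger EDL mass in C + WBV than in C, so the difference here includes the level of the vibrated controls.

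The values are log2 intensities of 35556 probe sets after normalization, so that a difference of 1 is a factor of 2, and 18820 genes with a single symbol were read from them. Pairs of the 11 arrays correlated over genes with r from 0.965 to 0.994. Defining fast muscle genes were high in every array (Myh4, the IIb myosin heavy chain, 12.59 to 13.02) and the slow myosin Myh7 was low (4.0 to 9.18, against 12.17 to 12.48 in SOL), as the tissue label states. 2 arrays stood apart within T + WBV. Replicate 2 lay near the controls on the first principal component of the 11 arrays, which held 51.6% of the variance, at 10.5, with the other T + WBV mice between -47.0 and -22.7 and C + WBV between 20.5 and 23.2. Replicate 3 had the lowest Myh7 (4.00) and the lowest tendon genes, such as Tnmd, of the group. Results that rest on either are given with and without it.

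In T + WBV against C + WBV, 2235 of 18820 genes (11.9%) passed the test (limma, adjusted p under 0.01), of which 992 (5.27%) were higher and 1243 (6.6%) were lower in T + WBV. A change of more than 2-fold was found in 387 of them (2.06% of all genes), 198 higher (1.05%) and 189 lower (1.0%). In 1602 genes (8.51%) the mice of the groups did not overlap at all, 768 higher (4.08%) and 834 lower (4.43%). The median difference over all genes was -0.03 on the log2 scale. Counts of list members given below are to be read against the shares of 5.27% higher and 6.6% lower. No list was tested as a set. Calls were more frequent among well-expressed genes, and a fit of only the 9410 genes above the median level gave 1105 higher and 1311 lower. The shares over all genes are thus a low measure for lists of well-expressed genes. The number of calls depended on which T + WBV mouse was present. Without replicate 2 it was 3318 (17.6%, of which 1490 or 7.92% of all genes higher and 1828 or 9.71% lower), and without replicates 1, 3 and 4 in turn it was 1424, 1489 and 1169. A total of 1058 genes passed in each of the 11 fits that left out 1 mouse. Of the genes called higher, 803 had a promoter window of the kind shown for Lcn2. The C/EBP letters stood in 8.97% of these windows (8.81% of all). The metal response letters stood in 51.3% (48.0% of all) and the FoxO letters in 2.12% (2.67% of all). No test was made of these shares.

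The 2 largest rises belonged to acute phase genes. Lcn2, an iron-scavenging protein of the innate defence, was 10.06, 6.37, 11.91, 10.65 and 11.26 in the 5 T + WBV mice, against 4.53 to 5.69 (median 4.94) in C + WBV. The lowest tumour bearing mouse, replicate 2, was still above every control. The difference of 5.04 ± 0.65 on the log2 scale was a 32.8-fold rise (limma, adjusted p = 1.39e-05). Serpina3n, a secreted protease inhibitor, was 10.03, 7.89, 11.17, 10.72 and 10.48 in the 5 T + WBV mice, against 5.04 to 5.46 (median 5.24) in C + WBV. The groups were far apart here, with replicate 2 again in between (4.79 ± 0.42, adjusted p = 7.62e-08). Lrg1, a leucine-rich glycoprotein of plasma, rose by 1.85 ± 0.20, adjusted p = 1.89e-06. Hp (haptoglobin), which binds free haemoglobin, was 5.83, 5.44, 5.47, 6.64 and 5.16 in the 5 T + WBV mice, against 3.89 to 4.94 (median 4.16) in C + WBV. The levels were modest, but no mouse overlapped (1.48 ± 0.24, adjusted p = 0.000235). Of 20 acute phase genes 10 were higher and 0 lower in T + WBV (median 0.44). In these 10 no T + WBV mouse overlapped a control, which held for 4.08% of all genes in that direction. The 10 had been picked by the same group difference, so this is a description. The liver-typical fibrinogen and serum amyloid genes of the list did not pass.

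Many receptors and relays of the interleukin-6 family rose with them. Of the 18 genes of that list 11 were higher and 2 were lower (median 1.04). Osmr, the receptor chain for oncostatin M, was 8.58, 8.07, 8.51, 8.77 and 8.52 in the 5 T + WBV mice, against 6.57 to 6.87 (median 6.74) in C + WBV. All 5 tumour bearing mice lay close together, replicate 2 included, and above the controls (1.76 ± 0.11, adjusted p = 2.6e-10). Stat3 was 9.70, 9.31, 9.88, 9.91 and 9.79 in the 5 T + WBV mice, against 8.21 to 8.51 (median 8.38) in C + WBV, with the same separation (1.35 ± 0.10, adjusted p = 1.51e-08). The receptor chain Il6ra was 8.76, 6.47, 8.78, 9.51 and 8.12 in the 5 T + WBV mice, against 5.82 to 6.25 (median 6.08) in C + WBV. There replicate 2 was only just above the highest control, while the rest were well above (2.27 ± 0.33, adjusted p = 7.37e-05). The transcription factor Cebpd rose by 2.75 ± 0.34, adjusted p = 9.35e-06 and the STAT3 feedback inhibitor Socs3 by 0.96 ± 0.14, adjusted p = 7.53e-05. Cebpb, a relative of Cebpd, rose by 1.01 ± 0.16, adjusted p = 0.000157, and Bcl3, which works with NF-kB, by 1.25 ± 0.15, adjusted p = 6.19e-06. The exceptions on the list were the receptor Lifr and the kinase Jak1, which were called lower. The call of Lifr was lost without T + WBV replicate 3, 4 or 5 or without C + WBV replicate 2.

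The NF-kB list, of subunits and targets of that inflammatory transcription factor, had 6 of 13 genes higher and 1 lower (median 0.53). The lower gene was Tnfaip3, an inhibitor of NF-kB, whose call was lost without T + WBV replicate 1, 3 or 4 or without C + WBV replicate 1, 2 or 4. Tnfrsf1a, a receptor for tumour necrosis factor, was 8.32, 7.88, 8.12, 8.16 and 8.02 in the 5 T + WBV mice, against 7.10 to 7.25 (median 7.20) in C + WBV. The T + WBV mice lay close together and well above the controls, replicate 2 included (0.92 ± 0.08, adjusted p = 2.05e-07). The survival factor Birc3 showed the same order, with 5.95, 5.84, 6.16, 5.75 and 5.91 in the 5 T + WBV mice, against 5.20 to 5.38 (median 5.28) in C + WBV. Every T + WBV mouse was above every control (0.64 ± 0.10, adjusted p = 0.000151). Nfkbia, the inhibitor that NF-kB itself induces, was 8.27, 7.29, 8.56, 8.62 and 7.99 in the 5 T + WBV mice, against 7.10 to 7.36 (median 7.28) in C + WBV, and there replicate 2 stayed within the control range (0.88 ± 0.16, adjusted p = 0.000449).

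**Figure D1:**
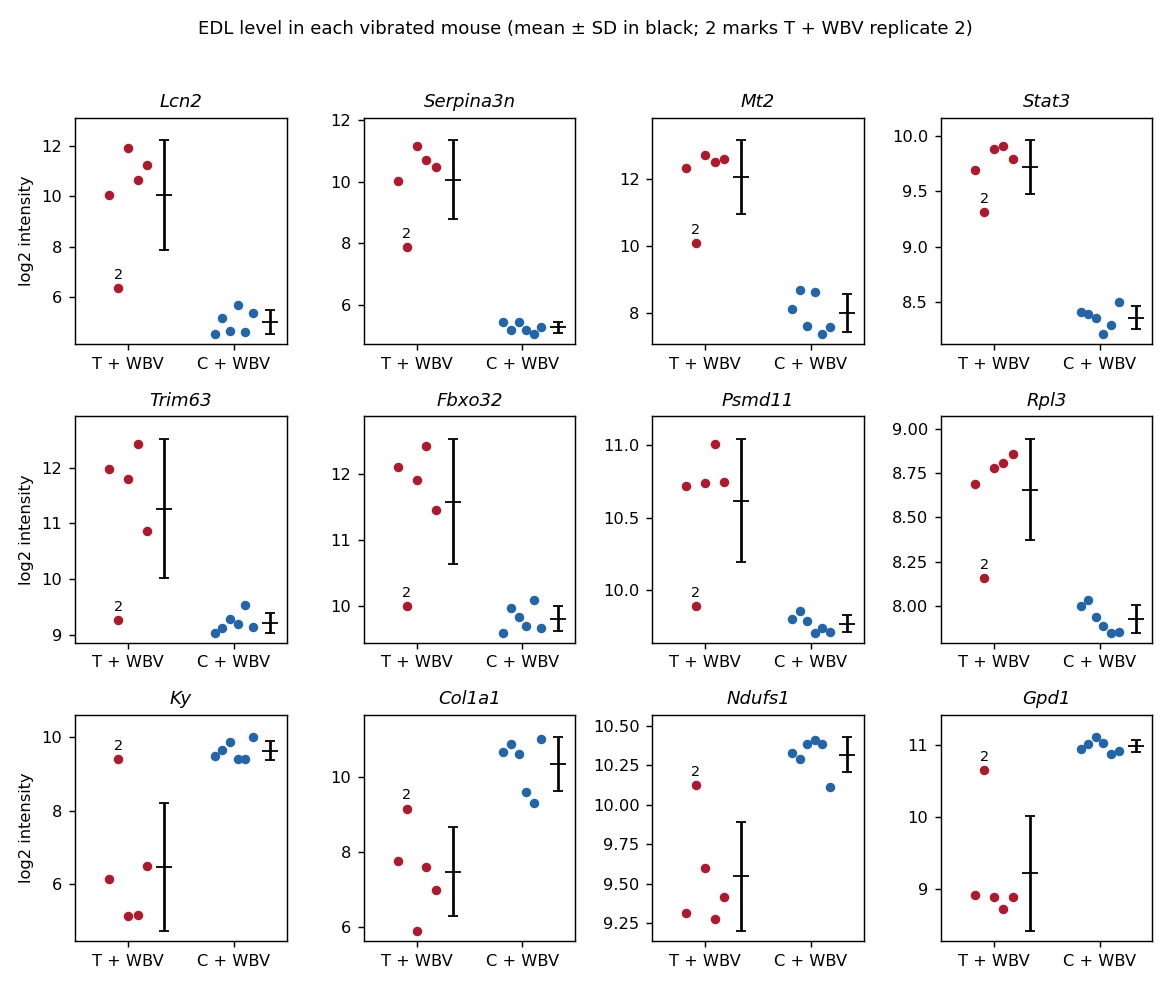
Level of 12 named genes in the EDL of each T + WBV mouse (red, left) and each C + WBV mouse (blue, right), as log2 intensity, with mean ± SD in black. T + WBV replicate 2 is marked by its number and lies between the other tumour bearing mice and the controls for Lcn2, Serpina3n and Stat3, and among or next to the controls for Trim63, Fbxo32 and Ky.

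The metallothioneins, small proteins that bind zinc and copper, were among the 12 largest rises that held in all 11 fits. Mt2 was 12.33, 10.10, 12.73, 12.51 and 12.62 in the 5 T + WBV mice, against 7.36 to 8.68 (median 7.87) in C + WBV. Mt1 was 12.75, 10.77, 12.85, 12.75 and 12.57 in the 5 T + WBV mice, against 9.37 to 10.07 (median 9.68) in C + WBV. For both genes 4 tumour bearing mice were nearly equal and replicate 2 was lower, yet above all controls. The differences were 4.06 ± 0.44, adjusted p = 1.89e-06 for Mt2 and 2.62 ± 0.28, adjusted p = 1.65e-06 for Mt1. The zinc importer Slc39a14 (ZIP14) was 8.03, 5.78, 9.78, 9.22 and 7.85 in the 5 T + WBV mice, against 5.43 to 6.07 (median 5.82) in C + WBV. Its replicate 2 lay inside the control range (2.38 ± 0.50, adjusted p = 0.00164). Of the 11 metallothionein and zinc transporter genes these 3 were higher and 0 lower, and the median of the list was 0.18.

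Of 17 FoxO factors and growth arrest genes 10 were higher and 0 lower, with a median of 0.88. Ddit4 (REDD1), an inhibitor of mTORC1, was 9.62, 6.25, 9.48, 10.11 and 8.18 in the 5 T + WBV mice, against 5.37 to 5.99 (median 5.75) in C + WBV. Cdkn1a (p21), an inhibitor of the cell cycle, was 9.72, 7.54, 9.83, 10.01 and 9.50 in the 5 T + WBV mice, against 6.68 to 7.32 (median 7.09) in C + WBV. In both genes the groups did not overlap and replicate 2 was close to the controls (3.00 ± 0.42, adjusted p = 4.26e-05 and 2.27 ± 0.33, adjusted p = 6.25e-05). Eif4ebp1, a brake on translation, was 9.44, 7.62, 9.59, 9.65 and 9.36 in the 5 T + WBV mice, against 7.12 to 7.33 (median 7.13) in C + WBV. Sesn1, a stress-induced regulator of mTORC1, was 9.79, 7.66, 10.08, 10.60 and 8.14 in the 5 T + WBV mice, against 7.36 to 7.49 (median 7.43) in C + WBV. In both genes all T + WBV mice were above the controls, and replicate 2 was the lowest of them (1.96 ± 0.26, adjusted p = 2.02e-05 and 1.83 ± 0.36, adjusted p = 0.000908). Foxo1 rose by 1.60 ± 0.27, adjusted p = 0.000311 and Foxo3 by 0.88 ± 0.16, adjusted p = 0.000449. Depp1, a FoxO target, was 10.21, 5.79, 9.37, 11.12 and 7.66 in the 5 T + WBV mice, against 5.96 to 6.51 (median 6.29) in C + WBV, so that 4 mice were high and replicate 2 was below the lowest control (2.55 ± 0.56, adjusted p = 0.0022). The call of Depp1 held in 9 of the 11 fits without 1 mouse. The stress gene Gadd45a rose by 1.38 ± 0.29, adjusted p = 0.00166. Fkbp5, a target of the glucocorticoid receptor, rose by 2.37 ± 0.32, adjusted p = 2.48e-05 and Errfi1, a feedback inhibitor of the EGF receptor, by 1.46 ± 0.22, adjusted p = 0.00013. In that list 6 of 15 genes were higher and 0 lower.

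Of 18 ubiquitin ligases and atrophy regulators 4 were higher and 2 lower, with a median of 0.14, against 5.27% of all genes called higher and 6.6% called lower. In the fit of only the 9410 genes above the median level, where calls were more frequent, 1105 were higher and 1311 lower. Trim63, the ligase of myosin and other thick filament proteins, was 11.98, 9.27, 11.80, 12.41 and 10.85 in the 5 T + WBV mice, against 9.04 to 9.54 (median 9.17) in C + WBV. Fbxo32 was 12.12, 10.00, 11.91, 12.44 and 11.46 in the 5 T + WBV mice, against 9.59 to 10.09 (median 9.76) in C + WBV. In both, 4 tumour bearing mice were high and replicate 2 lay within the control range (2.05 ± 0.35, adjusted p = 0.000311 and 1.78 ± 0.28, adjusted p = 0.000134). Fbxo31 rose by 1.52 ± 0.25, adjusted p = 0.000199. Cblb was the fourth gene that rose, while Trim55 and Wwp1 fell, with -0.82 and -0.65.

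Some subunits of the proteasome were higher, by small amounts. Of the 20S core, the proteolytic barrel, 7 of 13 were higher and 0 lower (median 0.42), and of the 19S regulator, which unfolds tagged proteins, 9 of 17 were higher and 0 lower (median 0.43). Psmd11, a 19S subunit, was 10.72, 9.88, 10.74, 11.01 and 10.75 in the 5 T + WBV mice, against 9.70 to 9.85 (median 9.76) in C + WBV, with replicate 2 only just above the highest control (0.86 ± 0.15, adjusted p = 0.000449). Psmd4, a ubiquitin receptor of the regulator, rose by 0.88 ± 0.17, adjusted p = 0.000987 and Psmd8 by 0.88 ± 0.21, adjusted p = 0.00416. Psma7 of the core rose by 1.09 ± 0.20, adjusted p = 0.000506. Psma1 did not pass at 0.42 ± 0.15, adjusted p = 0.0429. The 19S count rested on the mice present. It was 15 without replicate 2 and 2 without replicate 3, 4 or 5, and it was 4 to 6 without any 1 other mouse. The count of the core was 9 without replicate 2 and 4 without replicate 3, 4 or 5.

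Most lysosomal genes that passed were higher too, with 9 of 19 higher, 1 lower and a median of 0.32. Npc1, which exports cholesterol from the lysosome, was 10.06, 8.03, 9.84, 10.60 and 9.01 in the 5 T + WBV mice, against 7.77 to 8.11 (median 7.94) in C + WBV. Ctsl, a cathepsin, was 10.04, 8.68, 10.44, 11.08 and 9.86 in the 5 T + WBV mice, against 8.49 to 8.74 (median 8.64) in C + WBV. In both genes replicate 2 lay within the control range and the other mice above it (1.57 ± 0.30, adjusted p = 0.000704 and 1.40 ± 0.27, adjusted p = 0.000909). The acid glucosidase Gaa rose by 1.13 ± 0.23, adjusted p = 0.00109. Of 24 autophagy genes 5 were higher and 2 lower, against 5.27% and 6.6% of all genes. The higher genes numbered 2 without replicate 3 or 4, and 3 without replicate 1 or without C + WBV replicate 6. Map1lc3b, the coat protein of the autophagosome, rose by 0.89 ± 0.16, adjusted p = 0.000368 and Sqstm1, a cargo receptor, by 0.63 ± 0.14, adjusted p = 0.00304. Gabarapl1 rose by 1.28 ± 0.31, adjusted p = 0.0044 and held in 7 of the 11 fits.

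**Figure D2:**
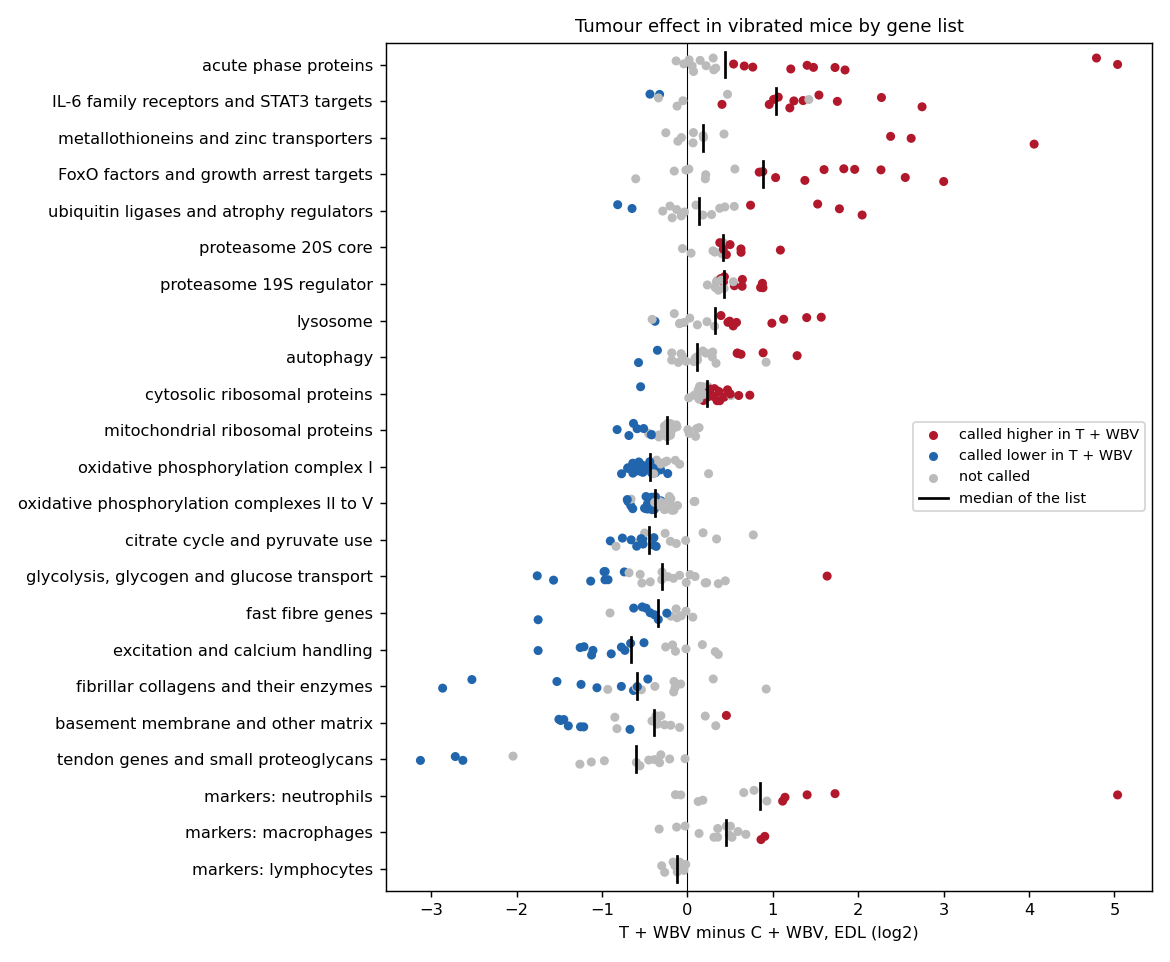
Difference T + WBV minus C + WBV in EDL (log2, horizontal axis) for each measured member of 23 gene lists (rows), red where called higher, blue where called lower in T + WBV and grey where not called, with the median of the list as a black line. The largest rises stand in the acute phase, metallothionein and FoxO lists, the largest falls among fibrillar collagens and tendon genes, and the respiratory complexes form a narrow band that is mostly below 0.

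Genes of the respiratory chain that passed were all lower in T + WBV, by less than a factor of 2. In complex I, the NADH dehydrogenase, 0 of 32 genes were higher and 23 lower (median -0.44). In complexes II to V 0 of 37 were higher and 18 lower (median -0.38). Ndufs1, the large iron-sulphur subunit of complex I, was 9.31, 10.12, 9.60, 9.28 and 9.41 in the 5 T + WBV mice, against 10.11 to 10.41 (median 10.36) in C + WBV. Replicate 2 overlapped the lowest control and the others were below (-0.77 ± 0.16, adjusted p = 0.00153). Ndufb10, another subunit of complex I, fell, with -0.70 ± 0.12, adjusted p = 0.000394, and cytochrome c1 (Cyc1) of complex III with -0.70 ± 0.17, adjusted p = 0.00377. Atp5g3, which encodes the ring subunit of the ATP synthase, fell, with -0.70 ± 0.13, adjusted p = 0.000617. The counts were 28 and 25 without replicate 2, and 15 and 5 without replicate 4. Complexes II to V gave 11 without replicate 1 and 9 without replicate 5. Of 35 mitochondrial ribosomal proteins 7 were lower and 0 higher, a count that was 11 without replicate 2, 4 without replicate 1 and 3 without replicate 4.

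Some enzymes of carbohydrate use were lower as well. Of 20 genes of the citrate cycle and pyruvate use 10 were lower and 0 higher (median -0.45), among them Dlat, the acetyl transferase of pyruvate dehydrogenase (-0.90 ± 0.18, adjusted p = 0.00117), and Idh3a, an isocitrate dehydrogenase (-0.76 ± 0.13, adjusted p = 0.000394). The citrate cycle count was 4 without T + WBV replicate 4, 5 without C + WBV replicate 4, and 6 without T + WBV replicate 1 or without C + WBV replicate 1, 2 or 3. Of 25 genes of glycolysis and glycogen 8 were lower and 1 was higher. Gpd1, the cytosolic glycerol phosphate dehydrogenase, was 8.93, 10.64, 8.90, 8.73 and 8.90 in the 5 T + WBV mice, against 10.88 to 11.11 (median 10.98) in C + WBV. The 4 low mice were nearly equal and replicate 2 lay just under the controls (-1.76 ± 0.39, adjusted p = 0.0022). Pgm1, which joins glycogen to glycolysis, fell, with -1.57 ± 0.33, adjusted p = 0.00155. The higher gene was Ppp1r3c, a glycogen-targeting subunit of protein phosphatase (1.64 ± 0.40, adjusted p = 0.00508), a call that held in 6 of the 11 fits. Pdk4, the kinase that blocks pyruvate dehydrogenase, was 12.61, 10.77, 12.27, 12.73 and 10.77 in the 5 T + WBV mice, against 10.72 to 11.48 (median 10.99) in C + WBV. Its mice split within T + WBV, with replicates 2 and 5 among the controls, and it did not pass (0.77 ± 0.37, adjusted p = 0.147). Ppargc1a, the coactivator of mitochondrial genes, did not pass at 0.35 ± 0.19, adjusted p = 0.222.

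Regulators of energy use were lower in part. Of the 15 genes of that list 1 was higher and 5 were lower. Prkag3, the subunit of AMP-activated kinase found in fast glycolytic fibres, was 6.33, 8.28, 6.14, 5.85 and 7.22 in the 5 T + WBV mice, against 8.32 to 8.84 (median 8.49) in C + WBV. All T + WBV mice were below the controls, though replicate 2 only just (-1.77 ± 0.30, adjusted p = 0.000264). Esrra, a nuclear receptor that drives mitochondrial genes, fell, with -0.56 ± 0.12, adjusted p = 0.00165. The lower genes of the list numbered 3 without C + WBV replicate 2, 3, 4 or 6 or without T + WBV replicate 5, and 2 without T + WBV replicate 1 or 4. Of 22 genes of fatty acid use 3 were higher and 1 lower, against 5.27% and 6.6% of all genes. The higher genes numbered 5 without T + WBV replicate 2 and 1 without T + WBV replicate 1, 3 or 4 or without C + WBV replicate 3 or 6. The lower gene was called without T + WBV replicate 2 but in none of the other fits without 1 mouse. Pnpla2, the lipase that opens fat droplets, was 11.15, 10.20, 11.21, 11.42 and 11.01 in the 5 T + WBV mice, against 9.67 to 10.18 (median 10.07) in C + WBV, with replicate 2 just above the highest control (0.98 ± 0.16, adjusted p = 0.000231). Plin5, a coat protein of droplets in muscle, rose by 0.92 ± 0.23, adjusted p = 0.00544 and held in 6 of the 11 fits.

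Of 42 cytosolic ribosomal proteins 20 were higher and 1 lower (median 0.23). Their probe sets may also bind transcripts of the many near-identical pseudogenes. Rpl3 was 8.69, 8.16, 8.78, 8.81 and 8.86 in the 5 T + WBV mice, against 7.85 to 8.04 (median 7.91) in C + WBV, without overlap and with replicate 2 nearest the controls (0.73 ± 0.11, adjusted p = 0.000134). Rps27 rose by 0.60 ± 0.09, adjusted p = 0.000147. The 1 gene that fell was Rpl3l, the muscle-specific paralogue of Rpl3 (-0.55 ± 0.13, adjusted p = 0.00468), whose call held in 7 of the 11 fits. Without replicate 1 of T + WBV 11 ribosomal protein genes were higher. Of 31 genes of ribosome biogenesis 8 were higher and 0 lower, for example the nucleolar proteins Gnl3 (0.90 ± 0.19, adjusted p = 0.00143) and Ddx21 (0.70 ± 0.14, adjusted p = 0.00132), and this count was 5 without replicate 3 or replicate 4 and 12 without replicate 2. Slc3a2, a chain of several amino acid transporters, rose by 1.00 ± 0.13, adjusted p = 1.56e-05, one of 6 higher genes among 24 of the amino acid stress response, which numbered 2 without replicate 4 and 3 without replicate 3.

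The fast myosins did not pass, but several of their partners fell. Of 15 fast fibre genes 0 were higher and 8 lower (median -0.34). The differences of the myosin heavy chains were -0.19 ± 0.07, adjusted p = 0.0639 for Myh4, 0.06 ± 0.10, adjusted p = 0.728 for Myh1, -0.13 ± 0.21, adjusted p = 0.723 for Myh2 and -0.62 ± 0.77, adjusted p = 0.646 for the slow Myh7. Casq1, the calcium store protein of the fast sarcoplasmic reticulum, was 11.03, 12.43, 10.08, 10.12 and 11.09 in the 5 T + WBV mice, against 12.63 to 12.73 (median 12.71) in C + WBV. No T + WBV mouse reached the controls (-1.75 ± 0.35, adjusted p = 0.00113). The regulatory light chain Mylpf fell, with -0.53 ± 0.11, adjusted p = 0.00154. Of 17 genes of excitation and calcium handling 10 were lower and 0 higher (median -0.67). Stac3, which couples the calcium channel of the membrane to that of the store, was 8.20, 9.31, 7.91, 7.69 and 8.37 in the 5 T + WBV mice, against 9.28 to 9.47 (median 9.42) in C + WBV, with replicate 2 within the control range (-1.11 ± 0.22, adjusted p = 0.001). Jph2, which holds these membranes together, fell, with -1.26 ± 0.29, adjusted p = 0.00273 (held in 8 of the 11 fits), as did the kinase Camk2a (-1.12 ± 0.17, adjusted p = 0.00012). The fast fibre count was 9 without replicate 2 and 3 to 6 without any 1 other mouse, and the calcium handling count was 5 without replicate 3 or 4 and 6 without replicate 1.

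The structural gene Ky, which encodes a protein that stabilizes the Z-disc, had the largest fall of all called genes. It was 6.15, 9.41, 5.14, 5.16 and 6.51 in the 5 T + WBV mice, against 9.40 to 10.00 (median 9.57) in C + WBV. In 4 mice Ky was far below the controls, and in replicate 2 it was at the lowest control value (-3.17 ± 0.56, adjusted p = 0.000401). Ankrd2, a stretch-responsive protein, was 10.22, 8.73, 11.55, 10.38 and 10.77 in the 5 T + WBV mice, against 8.09 to 9.05 (median 8.65) in C + WBV. There 4 mice were high and replicate 2 lay among the controls (1.69 ± 0.35, adjusted p = 0.00123). Myoz3, a fast fibre partner of calcineurin at the Z-disc, was 7.88, 9.34, 6.29, 7.23 and 6.78 in the 5 T + WBV mice, against 9.40 to 9.72 (median 9.48) in C + WBV, without overlap (-2.01 ± 0.41, adjusted p = 0.0013). Flnc, a filamin, rose by 1.07 ± 0.18, adjusted p = 0.000288. Of the 21 Z-disc and mechanosensing genes 7 were higher and 4 lower, and without replicate 3 both numbers were 2. Other fits without 1 mouse gave 3 to 7 higher and 2 to 6 lower genes. Csrp3, the muscle LIM protein, rose by 1.21 ± 0.31, adjusted p = 0.00612, and its call held in 2 of the 11 fits. At the neuromuscular junction Ache, the acetylcholinesterase, fell, with -1.53 ± 0.27, adjusted p = 0.000448, and Runx1, which rises in denervated muscle, was higher (1.19 ± 0.21, adjusted p = 0.000339). Myog passed narrowly (0.94 ± 0.25, adjusted p = 0.00973) and held in 1 of the 11 fits. The receptor subunit Chrna1 did not pass (-0.24 ± 0.11, adjusted p = 0.11).

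The growth factor genes Mstn (myostatin) and Igf1 did not pass either, with 0.57 ± 0.20, adjusted p = 0.0473 and -0.53 ± 0.22, adjusted p = 0.0971. Gdf11, the close relative of myostatin, was 4.19, 5.16, 4.93, 4.59 and 4.57 in the 5 T + WBV mice, against 5.24 to 6.05 (median 5.44) in C + WBV, so that every T + WBV mouse was lower (-0.84 ± 0.14, adjusted p = 0.000311). The potassium channel subunit Kcng4 (-2.46 ± 0.32, adjusted p = 1.56e-05), the water channel Aqp4 of fast fibres (-2.41 ± 0.42, adjusted p = 0.000319), the muscle methyltransferase Mettl21e (-2.32 ± 0.36, adjusted p = 0.000134) and Nrep (-2.88 ± 0.33, adjusted p = 2.92e-06) were among the 12 largest falls that held throughout, and the scaffold protein Cnksr1 (2.36 ± 0.34, adjusted p = 5.75e-05) among the 12 largest rises.

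Several collagens and other matrix genes fell. Col1a1, which encodes a chain of type I collagen, was 7.76, 9.16, 5.89, 7.59 and 6.99 in the 5 T + WBV mice, against 9.29 to 11.01 (median 10.63) in C + WBV. No T + WBV mouse overlapped the controls and replicate 2 was the nearest (-2.87 ± 0.49, adjusted p = 0.00031). Col1a2 fell with it (-2.52 ± 0.45, adjusted p = 0.000401), as did Col3a1 (-1.53 ± 0.36, adjusted p = 0.00375), whose call held in 8 of the 11 fits. Of 19 fibrillar collagen genes 9 were lower and 0 higher (median -0.59). Of 20 genes of the basement membrane and other matrix 7 were lower and 1 higher (median -0.39). The higher gene was Eln (elastin), whose call held in 4 of the 11 fits and was lost without T + WBV replicate 1, 3, 4 or 5 or without C + WBV replicate 1, 4 or 5. Col6a1, a chain of the collagen around fibres, was 6.71, 7.49, 5.56, 6.28 and 6.79 in the 5 T + WBV mice, against 7.73 to 8.27 (median 8.16) in C + WBV. Sparc, a collagen-binding protein, was 10.05, 10.66, 9.46, 10.27 and 9.99 in the 5 T + WBV mice, against 10.77 to 11.68 (median 11.34) in C + WBV. In both genes every T + WBV mouse was below the controls (-1.48 ± 0.26, adjusted p = 0.000324 and -1.21 ± 0.20, adjusted p = 0.000182). Postn (periostin) fell, with -1.51 ± 0.37, adjusted p = 0.00516, and held in 5 of the 11 fits. Adamts1, a matrix protease, rose by 0.87 ± 0.12, adjusted p = 5.52e-05.

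Some tendon genes fell as well, and there the mice differed. Kera (keratocan) was 5.75, 7.81, 3.24, 5.21 and 4.68 in the 5 T + WBV mice, against 7.65 to 8.73 (median 8.62) in C + WBV. Tnmd (tenomodulin) was 6.69, 8.09, 3.81, 5.72 and 5.13 in the 5 T + WBV mice, against 7.66 to 9.16 (median 8.69) in C + WBV. Replicate 3 was the lowest mouse in both genes and replicate 2 lay within the control range (-3.13 ± 0.56, adjusted p = 0.000449 and -2.72 ± 0.56, adjusted p = 0.00138). Chad followed the same order (-2.63 ± 0.55, adjusted p = 0.00154). Of the 15 tendon genes 3 were lower and 0 higher (median -0.60). Without replicate 2 the lower genes numbered 5, and without replicate 3 these counts were the same, with a median of -0.51. The mean level of the 11 fibroblast markers ran from 6.8 to 8.33 in T + WBV, against 8.24 to 8.61 in C + WBV, and 2 of them were called lower (1 without T + WBV replicate 3 or 5, or without C + WBV replicate 1). How much tendon was cut out with each muscle, and which portion of the muscle gave the RNA, was not recorded here. The effect of either on the matrix result was not tested. In tissue of mixed cell types, fewer cells of a type and less RNA per cell cannot be told apart.

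Leucocyte genes gave a mixed picture. Of 12 neutrophil markers 5 were higher and 0 lower (median 0.85), and 7 were higher without replicate 2. They include Lcn2, which other cells also make, and the calgranulins S100a8 (1.73 ± 0.46, adjusted p = 0.00815, held in 1 of the 11 fits) and S100a9 (1.40 ± 0.20, adjusted p = 6.25e-05), as well as Retnlg (1.14 ± 0.24, adjusted p = 0.0016) and the chemokine receptor Cxcr2 (1.11 ± 0.18, adjusted p = 0.000212). The remaining 7 markers did not pass. Of these, the granule genes Elane, Mpo, Ltf and Camp differed by -0.14, -0.08, 0.13 and 0.18, the granule genes Ngp and Mmp8 by 0.78 and 0.93, and the receptor Csf3r by 0.66. The mean level of the list was 3.78 to 5.15 in T + WBV, against 3.28 to 3.47 in C + WBV. Of 15 macrophage markers 2 were higher and 0 lower, against 5.27% and 6.6% of all genes, and 5 were higher without replicate 3. None of 10 lymphocyte markers and none of 9 adipocyte markers passed. Cxcl13, a chemokine that attracts B cells, was 8.59, 5.59, 8.46, 8.67 and 8.23 in the 5 T + WBV mice, against 3.91 to 5.21 (median 4.40) in C + WBV, without overlap (3.36 ± 0.46, adjusted p = 3.17e-05). Ccl8 was 5.18, 5.52, 3.44, 4.20 and 3.57 in the 5 T + WBV mice, against 2.83 to 3.55 (median 3.08) in C + WBV, with replicate 2 the highest mouse and replicate 3 within the control range (1.24 ± 0.31, adjusted p = 0.00561). Its call held in 4 of the 11 fits. The part of immigrant cells in these values was not tested.

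No gene of the interferon response was called higher. Of 23 genes 0 were higher and 3 lower (median -0.14), against 5.27% and 6.6% of all genes. The lower genes numbered 0 without T + WBV replicate 3 or 4 and 1 without T + WBV replicate 1 or without C + WBV replicate 2, 5 or 6. Ifit3 was 4.89, 5.15, 4.18, 4.65 and 5.11 in the 5 T + WBV mice, against 5.25 to 6.10 (median 5.53) in C + WBV, without overlap (-0.78 ± 0.18, adjusted p = 0.00312), a call that held in 9 of the 11 fits. Gbp3, a guanylate-binding protein, fell, with -1.37 ± 0.35, adjusted p = 0.007, and held in 3. Casp4, an inflammatory caspase, was 5.73, 4.82, 5.25, 5.77 and 4.76 in the 5 T + WBV mice, against 3.91 to 4.47 (median 4.17) in C + WBV, with every T + WBV mouse above the controls (1.09 ± 0.17, adjusted p = 0.00014). Of 18 genes of the cell cycle 0 were higher and 3 lower, against 5.27% and 6.6% of all genes. Among the lower genes was the cyclin Ccnd1 (-0.82 ± 0.15, adjusted p = 0.000536).

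In the endothelium list 4 of 13 genes were higher and 2 lower, against 5.27% and 6.6% of all genes. The fallers were the receptors Kdr (-0.83 ± 0.15, adjusted p = 0.000355) and Aplnr (-1.39 ± 0.28, adjusted p = 0.00109), while Esam and Pecam1 were among those that rose, with 0.75 ± 0.10, adjusted p = 1.45e-05 and 0.48 ± 0.10, adjusted p = 0.00171. Vegfd, a growth factor of lymph and blood vessels, was 7.75, 5.97, 8.44, 8.03 and 7.92 in the 5 T + WBV mice, against 5.27 to 5.62 (median 5.44) in C + WBV, with 4 mice high and replicate 2 just above the controls (2.18 ± 0.37, adjusted p = 0.000284).

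Of 306 genes of miRNAs on the array 5 passed (1.63%, against 11.9% of all genes), 3 higher and 2 lower. They were chosen here after their values were seen. Mir29a was 3.75, 3.77, 4.69, 5.12 and 4.30 in the 5 T + WBV mice, against 2.48 to 3.27 (median 3.12) in C + WBV. These levels lie near the bottom of the scale, but no mouse overlapped (1.30 ± 0.28, adjusted p = 0.00172). Mir505 rose by 0.54 ± 0.11 (adjusted p = 0.00158). The mature sequences of both genes are shown for identification, from RefSeq in GRCm38.p6, with the seed (bases 2 to 8) in capitals.
mmu-miR-29a-3p: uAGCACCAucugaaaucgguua
mmu-miR-29a-5p: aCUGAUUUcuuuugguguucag
mmu-miR-505-3p: cGUCAACAcuugcugguuuucu
mmu-miR-505-5p: gGGAGCCAggaaguauugauguu
The 4 seeds differ from each other. Mir29a lies on chromosome 6 and Mir505 on chromosome X. The array reads the transcript that holds the hairpin, and the mature miRNAs were not measured.

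The same tumour effect can be read in mice that were never vibrated (T against C), and the comparisons share no mouse. When each pair of groups was fitted alone, 1487 genes (7.9%) passed in T + WBV against C + WBV and 3944 (21.0%) in T against C. Of these 1376 passed in both, which is 92.5% of the calls in vibrated mice and 34.9% of the calls in the others, and all 1376 had the same sign. Over the 18820 genes the differences of the pairs correlated with r = 0.907, given as a description since genes are not independent. In the fit of all 4 groups T against C gave 4209 calls (22.4%), 2020 higher (10.7%) and 2189 lower (11.6%). The direct test of the difference between the effects gave 0 calls (limma, 0.0%, and 0 under every alternative), with a smallest adjusted p of 0.982, and 596 genes had an unadjusted p under 0.05. A p that misses the threshold does not show that the effects were equal. The effect on Lcn2 was 5.04 ± 0.65 in vibrated mice and 5.49 ± 0.62 in mice without vibration. For Stat3 it was 1.35 ± 0.10 in vibrated mice and 1.39 ± 0.10 without vibration. For Trim63 it was 2.05 ± 0.35 in vibrated mice and 2.66 ± 0.33 without vibration, for Ky -3.17 ± 0.56 in vibrated mice and -4.13 ± 0.54 without vibration, and for Col1a1 -2.87 ± 0.49 in vibrated mice and -3.41 ± 0.47 without vibration. The signs were the same in each. For Lcn2 the effect in vibrated mice minus that in the others was -0.45 ± 0.89, for Trim63 -0.61 ± 0.48, for Ky 0.96 ± 0.78 and for Col1a1 0.55 ± 0.68. These values include T + WBV replicate 2. The mean difference of the other 4 T + WBV mice from C + WBV was 5.96 for Lcn2, 1.46 for Stat3 and 2.54 for Trim63. It was -3.9 for Ky and -3.29 for Col1a1. Without replicate 2 the direct test gave 0 calls, and 555 genes had an unadjusted p under 0.05. No mouse of T was left out for these values.

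**Figure D3:**
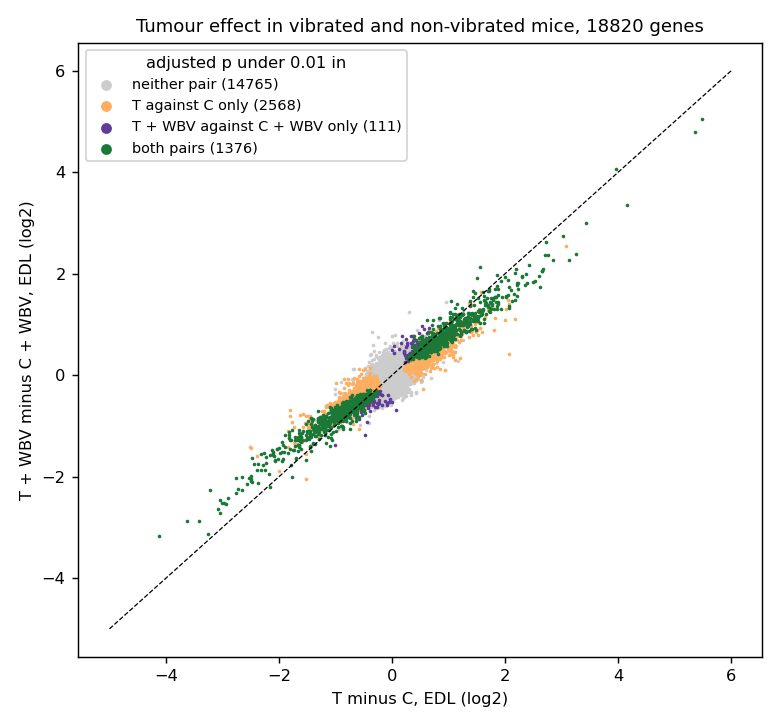
Difference T + WBV minus C + WBV (vertical axis, log2) against T minus C (horizontal axis, log2) in EDL for 18820 genes, coloured by the pair in which the gene passed when each pair was fitted alone. The 1376 genes that passed in both all lie where both differences have the same sign, and many lie nearer to the horizontal axis than the dashed line of equality. The vertical differences include T + WBV replicate 2.

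The smallest p-values of that test belonged to Bmp8b, Mansc1 and Rnf222. Bmp8b, a bone morphogenetic protein, was 4.00, 3.99, 3.74, 4.05 and 3.75 in the 5 T + WBV mice, against 3.06 to 3.66 (median 3.56) in C + WBV. Its T + WBV mice lay above the controls, while in mice without vibration the difference was -0.33, and the difference of the effects was 0.79 ± 0.16 (unadjusted p = 6.09e-05). Rnf222 (-0.67 ± 0.17) likewise had opposite signs in the pairs. For Mansc1 (0.70 ± 0.17) the difference was 0.12 in vibrated mice, and 0.01 without T + WBV replicate 2, against -0.58 in mice without vibration. All 3 failed the correction over 18820 genes.

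The SOL of the same vibrated mice had fewer calls, 679 (3.61%) in T + WBV against C + WBV, 366 higher (1.94%) and 313 lower (1.66%). A test on the difference EDL minus SOL within each mouse found 27 genes (0.143%) whose tumour effect differed between the muscles, 21 with the lower effect in EDL (0.112%) and 6 with the higher (0.0319%). This count was 181 without T + WBV replicate 2, 0 without replicate 1 or replicate 3, 3 without replicate 4 and 5 without replicate 5, and it was 8 to 15 without C + WBV replicates 1, 2, 3, 4 or 6. No gene passed in all 11 fits, and Lrrfip1 and Slc9a7 held in most, 9. Of the 21 lower genes 17 were called lower in EDL itself.

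Itga4, an integrin chain, had a within-mouse difference EDL minus SOL of 0.2, 2.72, 0.15, 0.44 and 0.75 in the 5 T + WBV mice, against 2.83 to 3.96 (median 3.19) in C + WBV. The groups did not overlap, though replicate 2 came close (-2.45 ± 0.37, adjusted p = 0.0022). Its mean level in EDL was 5.61 in T + WBV and 7.89 in C + WBV, and in SOL 4.76 in T + WBV and 4.58 in C + WBV, where it was low in both. Gdap1, a mitochondrial membrane protein, averaged 3.46 in T + WBV and 6.01 in C + WBV in EDL, and 2.72 in T + WBV and 2.99 in C + WBV in SOL (-2.28 ± 0.35, adjusted p = 0.00264). The SOL levels of Gdap1 were low in both groups, where a fall would be compressed. Smox, which oxidizes spermine, averaged 7.12 in T + WBV and 8.52 in C + WBV in EDL, and 5.73 in T + WBV and 5.93 in C + WBV in SOL (-1.20 ± 0.19, adjusted p = 0.00264). In these 3 genes and Ache the SOL of the controls was lower than the EDL of the controls.

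Lrrfip1, Slc9a7, Mt1 and Hspb7 showed other patterns. Lrrfip1 averaged 7.24 in T + WBV and 8.28 in C + WBV in EDL, and 8.17 in T + WBV and 8.14 in C + WBV in SOL (-1.08 ± 0.15, adjusted p = 0.0019). Slc9a7, a sodium-proton exchanger of the Golgi, averaged 6.23 in T + WBV and 6.42 in C + WBV in EDL, and 7.44 in T + WBV and 6.77 in C + WBV in SOL, where the rise passed (-0.86 ± 0.12, adjusted p = 0.0019). Mt1 averaged 12.34 in T + WBV and 9.72 in C + WBV in EDL, and 12.17 in T + WBV and 10.53 in C + WBV in SOL, and rose in both (difference 0.99 ± 0.16, adjusted p = 0.00505). The small heat shock protein Hspb7 rose in EDL by 0.91 ± 0.13, adjusted p = 7.02e-05, and differed by 0.23 in SOL, which did not pass (difference of the effects 0.67 ± 0.12, adjusted p = 0.00825).

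**Figure D4:**
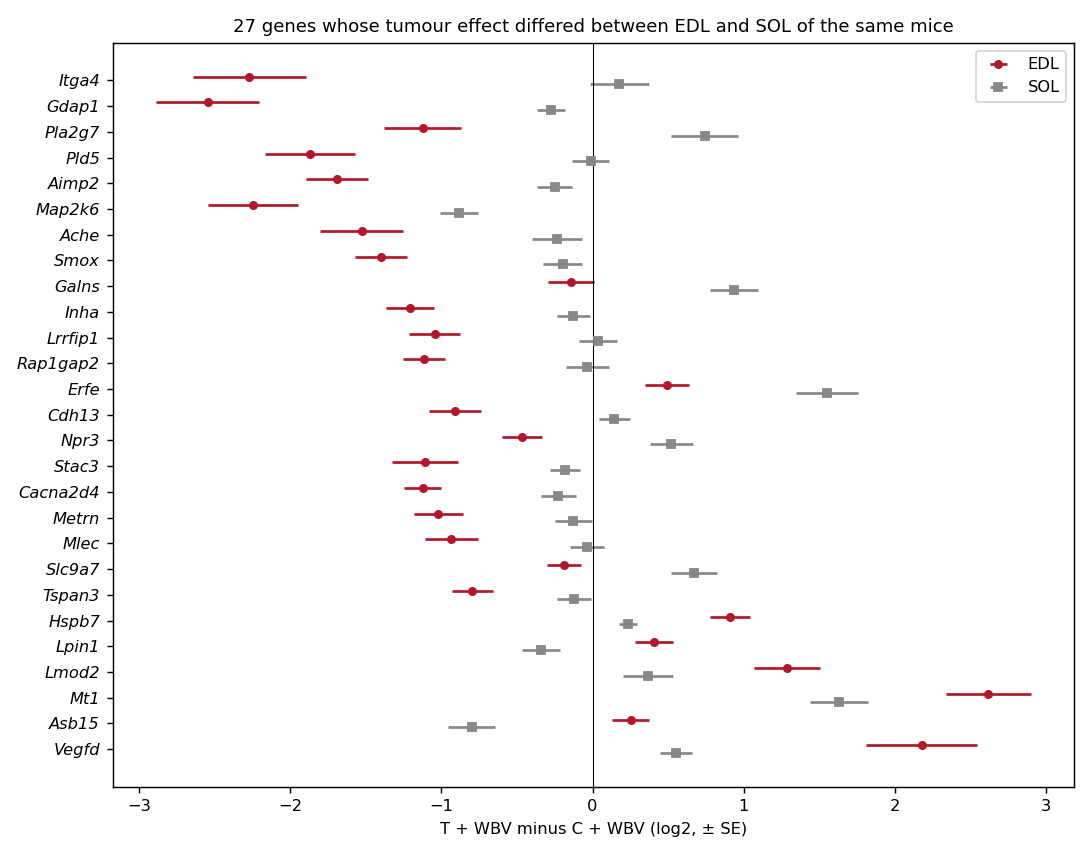
Difference T + WBV minus C + WBV (log2, ± SE) in EDL (red circles) and SOL (grey squares) of the same vibrated mice for the 27 genes that passed the within-mouse test, ordered by EDL minus SOL. Of the 21 genes at the top 17 fell in EDL, most of them with SOL near 0 (Map2k6 fell in both), while Galns, Erfe and Slc9a7 rose in SOL.

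The 5 T + WBV mice spanned a wide range. The spread between mice in the called genes was larger in T + WBV (median SD 0.31, and 0.212 without replicate 2) than in C + WBV (0.125), and the SD was larger in T + WBV in 92.0% of the called genes and in 63.4% of all genes. Each mouse was placed on the axis that runs from C to T in mice without vibration, where 0 is the mean of C + WBV and 1 the size of the whole difference T minus C. The score was 0.817, 0.177, 0.965, 1.061 and 0.716 in T + WBV replicates 1 to 5, against -0.014 to 0.016 in C + WBV. Replicate 2 thus lay above all controls but far below the other tumour bearing mice. Of the 1889 genes called higher in T against C, 86.4, 38.4, 89.7, 94.7 and 79.0% were above the range of all C + WBV mice in the 5 T + WBV mice in turn. Each C + WBV mouse, held against the range of the other 5, had 13.8 to 25.1% of these genes above it. Over all 18820 genes the shares above were 24.2, 13.9, 24.4, 24.5 and 20.2% in T + WBV, against 13.5 to 19.8% in C + WBV. Of the 2055 genes called lower in T against C, 86.4, 35.2, 89.5, 94.6 and 84.1% were below the range in T + WBV, against 8.52 to 25.8% in C + WBV. The mouse with the lowest share was also the one that kept its body mass, which is a single mouse and no test.

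The size of the change in that mouse differed between the lists and within them. Its difference from C + WBV was divided by the mean difference of the other 4 T + WBV mice, over the 3318 genes (17.6%) that passed without it. It took no part in choosing them, but the 4 mice of the divisor did, which draws the ratio toward 0. The ratio was computed for no other mouse. The median ratio over these genes was 0.2. It was 0.47 for the 10 acute phase genes among them, 0.44 for 12 fibrillar collagen genes, 0.36 for 22 cytosolic ribosomal proteins and 0.32 for 13 genes of the interleukin-6 and STAT3 list. It was 0.14 for 11 FoxO and growth arrest genes, 0.09 for 8 ubiquitin ligases and for 9 genes of the 20S core, and -0.02 for 15 genes of the 19S regulator. The lists of complement (0.7) and of macrophage markers (0.65) were higher still, with 3 such genes each. Single genes ran from 0.23 to 0.78 among the acute phase genes, from 0.09 to 0.77 in the interleukin-6 list, from -0.15 to 0.32 among FoxO and growth arrest genes and from -0.07 to 0.22 among the ubiquitin ligases. The ratio was 0.72 for Osmr, 0.65 for Stat3, 0.49 for Serpina3n, 0.27 for Cebpd, 0.23 for Lcn2 and 0.15 for Il6ra. It was 0.32 for Foxo3, 0.25 for Foxo1, 0.22 for Wwp1, 0.21 for Cblb, 0.09 for Fbxo32, 0.02 for Trim63 and -0.15 for Depp1.

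**Figure D5:**
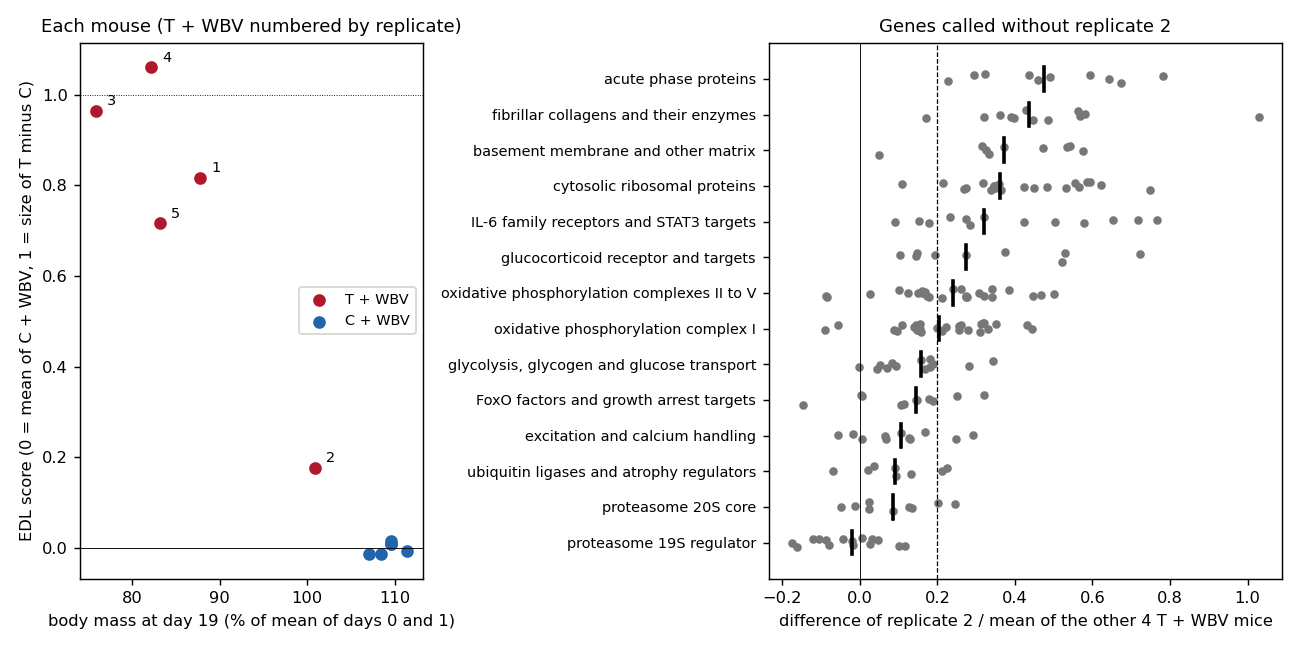
Left, score of each vibrated mouse on the axis from C to T (vertical axis) against body mass at day 19 as a percentage of the mean of day 0 and day 1 (horizontal axis), T + WBV in red with replicate numbers and C + WBV in blue. Right, difference of T + WBV replicate 2 from the mean of C + WBV divided by the mean difference of the other 4 T + WBV mice, for genes of 14 lists that passed without replicate 2 (points, list medians as bars, dashed line at the median of 0.2 over all such genes). Among these 14 lists the median is highest for acute phase proteins and lowest for the 19S regulator, and the points of most lists overlap.

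The 5 called genes with the largest change in replicate 2 were Serpina3n, Ccl8, Mt2, Scgb3a1 and Prnd. Scgb3a1, a small secreted protein, was 6.18, 5.94, 6.33, 5.47 and 7.03 in the 5 T + WBV mice, against 3.89 to 4.47 (median 4.26) in C + WBV. All mice lay above the controls, replicate 2 included (1.97 ± 0.24, adjusted p = 9.13e-06). Prnd, a relative of the prion protein, was 2.88, 2.94, 3.23, 3.30 and 3.19 in the 5 T + WBV mice, against 3.45 to 5.15 (median 4.77) in C + WBV, and there replicate 2 was as low as the rest (-1.37 ± 0.31, adjusted p = 0.00278). The T + WBV levels of Prnd lie near the bottom of the scale, where differences between mice are compressed. These statements describe 1 mouse and carry no test.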

How the data were processed

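Total RNA from a part of the EDL was hybridized to 1 array per mouse. The deposited values are log2 expression levels that the authors made from the scanned arrays with the robust multi-array average (RMA, background correction, quantile normalization and summary per probe set, version not given in the sources used here), for 35556 probe sets. Quantile normalization sets the array medians nearly equal, so a shift common to all genes cannot be seen, and the number of arrays limits the precision. The platform annotation gave 1 symbol to 21218 probe sets, several to 1881 and none to 12457. Probe sets of 1 symbol were averaged, which gave 18820 genes. Limma 3.58.1 (R 4.3.3) was fitted to the 23 EDL arrays of all 4 groups with a trend in the prior variance, and p-values were adjusted over all genes by Benjamini-Hochberg with a threshold of 0.01. EDL and SOL were compared on the difference within each mouse. Masses were compared by exact permutation tests (scipy 1.17.1 in Python 3.11.15). Motifs were searched in RefSeq promoters of build GRCm38.p6, with the letters given beside each window on both strands, where overlapping matches each counted. Named were the 12 largest rises and the 12 largest falls whose call held in each fit without 1 mouse, up to 3 members of each gene list, a fixed list of atrophy genes, 3 genes each of the tests between vibrated and other mice and between muscles, and the 5 largest changes of T + WBV replicate 2. Lifr, Jak1, Cebpb, Bcl3, Hp, Birc3, Tnfaip3, Cblb, Trim55, Wwp1, Sesn1, Eif4ebp1, Esrra, Flnc, Stac3, Camk2a, Sparc, Eln, Pecam1, Vegfd, Elane, Mpo, Ltf, Camp, Ngp, Mmp8, Csf3r, Retnlg, Cxcr2, Map2k6, Galns, Erfe, Slc11a2, Sat1, Ampd1, Igf1r, Akt1, Pik3r1 and the miRNA genes were named after their values were seen. The members and lists were chosen with earlier results of these data known. The alternatives were another prior variance, an intensity-based moderated test, a second quantile normalization, a filter on low levels, another summary of probe sets, a covariate for a suffix in the array descriptions, only the pair of groups, all probe sets, a threshold of 0.05, the replicate number as a block and the omission of each mouse. Within a muscle the labels give each sample a mouse of its own, and EDL and SOL were joined by that mouse number. The labels do not say that a replicate number marks a shared cage or day. The fits were tested on simulated data with normal noise of the same SD in every group. That setting differs from these data, where the SD was larger in T + WBV in 92.0% of the called genes.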

Additional observations from a re-analysis of the deposited data

Results flagged for a closer look

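A total of 324 groups of values, those of the named genes, the masses and the score, were checked for a mouse far from the rest of its group by Dixon's gap test at the 95% level, which marks about 5% of groups by chance. It marked 31, of which 21 were in T + WBV, and 19 of these were replicate 2. That mouse was low for Cxcl13 (5.593), Mt1 (10.77), Mt2 (10.1), Cdkn1a (7.537), Psmd11 (9.883), Rpl3 (8.156), Rps27 (10.21), Cnksr1 (7.031), Arntl (4.91), Eif4ebp1 (7.618) and Vegfd (5.965). It was high for Pgm1 (10.76), Gpd1 (10.64), Nrep (7.643), Gdap1 (5.512), Aqp4 (7.456), Wwp1 (10.44), Map2k6 (8.816) and Gbp3 (5.504). In each of these 19 genes it lay on the side of the controls. The genes are not independent, since they were read from the same array. The remaining marks were replicate 5, low for Galns (4.278), and replicate 3, high for Mmp8 (5.029).

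In C + WBV 10 values were marked. Replicate 5 was low for the tendon genes Kera (7.654) and Tnmd (7.665), replicate 3 was low for Cebpd (4.448) and high for Mylpf (12.41), replicate 4 was high for Psma1 (8.693), and replicate 6 was low for Myh1 (12.1) and Pnpla2 (9.671). Replicate 2 was high for Pik3r1 (8.382), replicate 1 low for Mpo (3.222) and replicate 3 low for Camp (3.016).

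A tumour effect that differed between EDL and SOL of the same mice passed the test for 13 named genes. The difference EDL minus SOL was positive for Vegfd (1.625), Mt1 (0.99) and Hspb7 (0.67). It was negative for Itga4 (-2.45), Gdap1 (-2.275), Ache (-1.29), Smox (-1.20), Lrrfip1 (-1.08), Slc9a7 (-0.86), Map2k6 (-1.363), Galns (-1.075), Erfe (-1.06) and Stac3 (-0.9249).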

How the results depend on the processing

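The count of 2235 genes was between 1725 and 2570 under 8 of the planned settings, 1487 with only T + WBV and C + WBV in the fit, and 4006 at a threshold of 0.05. The totals tested were not all alike. The count was 2570 of 35556 probe sets and 2416 of 9410 genes above the median level, against 2235 of 18820 genes. Leaving out 1 mouse gave 1169 to 3318. The count of 27 genes that differed between EDL and SOL was 11 with 1 prior variance and 17 with a covariate for the description suffix. It was 50 of 9410 with only genes above the median level. It was 109 without T + WBV replicates 2 and 3 together, a setting chosen after seeing the data. Leaving out 1 mouse gave 0 to 181. The cause was not tested. The comparison of vibrated with other mice gave 0 calls in each setting. For the 159 named genes 3088 of 3310 values kept their direction and their side of the threshold, 208 lost the call, 11 gained it and 3 changed sign. The sign changes were in Myh1 (-0.0241 without T + WBV replicates 2 and 3) and Myh7 (0.0925 without replicates 2 and 3, and between -1.08 and 0.16 when 1 mouse was left out), which were not called. With the replicate number as a block the counts were 1725, 29 between the muscles and 0 between vibrated and other mice. The deviations of mice with the same number in T + WBV and C + WBV correlated with r from -0.039 to 0.022, and no mouse correlated best with its own number, so the numbers were not taken as pairs. The score and the masses came from no fit that could hold a block.

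The limits are those of 5 mice against 6, of which 1 lay near the controls. Cell types are mixed in each piece of muscle, and differences are compressed at levels close to background. Leaving out 1 mouse gave a mean difference of -2.35 to -1.98 mg in EDL mass and of -26.98 to -20.72 in the body mass percentage.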

Other observations

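Some genes of iron uptake were lower in T + WBV, and a heme-degrading enzyme was higher. Tfrc, the transferrin receptor, was 4.92, 7.36, 5.68, 4.68 and 6.34 in the 5 T + WBV mice, against 7.74 to 8.87 (median 8.38) in C + WBV. No mouse overlapped, and replicate 2 was the nearest to the controls (-2.52 ± 0.34, adjusted p = 2.27e-05 by limma). The iron transporter Slc11a2 (-0.56 ± 0.11, adjusted p = 0.000992) and Alas1, which starts heme synthesis (-0.98 ± 0.15, adjusted p = 9.07e-05), fell as well. Hmox1, the heme oxygenase, was 7.60, 6.16, 9.48, 7.84 and 7.24 in the 5 T + WBV mice, against 5.50 to 5.96 (median 5.76) in C + WBV, with replicate 3 the highest mouse (1.93 ± 0.38, adjusted p = 0.000876). Of 15 iron and heme genes 2 were higher and 5 lower, and 1 was higher without T + WBV replicate 1, 3 or 4 or without C + WBV replicate 2 or 4. Of 22 antioxidant and glutathione genes 8 were higher and 2 lower, among them Gclm, a subunit of the enzyme that starts glutathione synthesis (1.69 ± 0.30, adjusted p = 0.000397), and the higher genes numbered 5 without T + WBV replicate 3, 4 or 5 or without C + WBV replicate 1, 2 or 3.

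Clock genes changed in both directions, 4 of 15 higher and 3 lower (5 lower without T + WBV replicate 2). Arntl (BMAL1), an activator of the clock, was 6.64, 4.91, 6.53, 6.78 and 6.82 in the 5 T + WBV mice, against 4.51 to 5.69 (median 4.92) in C + WBV. Replicate 2 lay at the median of the controls and the other 4 mice above the highest control (1.35 ± 0.35, adjusted p = 0.00663), and the call held in 2 of the 11 fits without 1 mouse. Its relative Npas2 rose by 1.16 ± 0.24, adjusted p = 0.0016. The repressor Bhlhe41 fell, with -1.60 ± 0.26, adjusted p = 0.000172. The hour at which each muscle was taken was not used here, and its part was not tested.

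In the breakdown of polyamines and purines 5 of 14 genes were higher and 5 lower. Ampd3, the AMP deaminase of non-muscle tissue, was 8.66, 6.86, 9.02, 10.06 and 8.01 in the 5 T + WBV mice, against 6.56 to 6.96 (median 6.81) in C + WBV, with replicate 2 within the control range (1.73 ± 0.45, adjusted p = 0.00737, held in 2 of the 11 fits). The muscle AMP deaminase Ampd1 fell, with -1.23 ± 0.23, adjusted p = 0.000626. Sat1, which acetylates spermidine, rose by 1.13 ± 0.21, adjusted p = 0.000592, and Odc1, which makes putrescine, did not pass (0.29 ± 0.16, adjusted p = 0.234). The higher genes of this list numbered 2 without T + WBV replicate 3 or 4 or without C + WBV replicate 1, 4 or 5, and 3 without any 1 of the other mice except replicate 2 of T + WBV, where they numbered 6.

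Parts of insulin signalling were higher, with 7 of 18 genes higher and 2 lower. The receptor Igf1r rose by 0.86 ± 0.18, adjusted p = 0.00164, the kinase Akt1 by 0.98 ± 0.19, adjusted p = 0.000843 and the regulatory subunit Pik3r1 by 1.08 ± 0.17, adjusted p = 0.000169. Igfbp5, which binds insulin-like growth factors, was 8.62, 10.14, 6.93, 8.24 and 8.45 in the 5 T + WBV mice, against 9.98 to 10.46 (median 10.22) in C + WBV, with replicate 2 within the control range and replicate 3 the lowest (-1.73 ± 0.38, adjusted p = 0.002).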
